A study of Mus musculus with 8 samples.

Results

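Notch receptors and genes of their pathway were followed in CD4- CD8- mouse cells from the thymus and from the spleen, with and without the dioxin TCDD. The genes were the receptors Notch1, Notch2 and Notch3, the DNA-binding partner Rbpj, and the target or feedback genes Hes1, Nrarp, Dtx1 and Myc. Every probe set that the platform annotation gives to 1 of these 8 symbols was taken, each on its own, which gave 13 probe sets among the 22626 tested and 8 genes among the 12393 with a symbol of their own. Each of the 8 genes was measured: 5 had 2 probe sets and 3 had 1.

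The mice were female C57BL/6 animals aged 6 to 8 weeks, and no genetic change is named for any group. They received an intraperitoneal injection of corn oil, or of TCDD (2,3,7,8-tetrachlorodibenzo-p-dioxin, which binds the aryl hydrocarbon receptor, AhR) in corn oil at 10 µg/kg. On day 5 the dye FITC was injected into the thymus of all animals, and CD4- CD8- FITC-positive cells were sorted 24 h later from the thymus (thymocytes) or the spleen (thymus emigrants). The 4 groups were thymocytes after oil, thymocytes after TCDD, emigrants after oil and emigrants after TCDD, with 2 arrays each, numbered 1 and 2 in the labels. All values are log2 expression values, so a difference of 1 is a doubling. Nothing in the labels ties the paired arrays of a group to different animals, pools or extractions, and every p-value here therefore reflects sample-to-sample spread alone, possibly of technical origin. Emigrants in this design are FITC-marked spleen cells, and the gate alone names no T cell marker. Precision is limited by having 2 arrays a group.

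Notch receptors are surface proteins that are cut when a ligand on a neighbouring cell binds, which frees an intracellular part that enters the nucleus and joins RBPJ to switch on target genes. In the thymus, Notch1 signals commit early progenitors to the T cell lineage and carry CD4- CD8- cells through beta-selection, with Hes1, Nrarp, Dtx1, Myc, Ptcra and Il2ra among the known targets. Hes1 encodes a repressor, Nrarp a feedback inhibitor that acts on the Notch complex, Dtx1 (Deltex) a ubiquitin ligase of the pathway and Myc a growth regulator. Notch3 is itself a Notch1 target in immature thymocytes, and Notch2 is best known in the spleen for its role in marginal zone B cells.

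The promoters of Notch1 and Notch3 are shown because these receptors carried the main difference between the cell sources. They come from RefSeq on GRCm38.p6, both on the minus strand, written 5′ to 3′ along the gene, with GC boxes (GGGCGG, or CCGCCC where the box lies on the other strand) in capitals.
Notch1 upstream bases, chr2:26503823-26504072: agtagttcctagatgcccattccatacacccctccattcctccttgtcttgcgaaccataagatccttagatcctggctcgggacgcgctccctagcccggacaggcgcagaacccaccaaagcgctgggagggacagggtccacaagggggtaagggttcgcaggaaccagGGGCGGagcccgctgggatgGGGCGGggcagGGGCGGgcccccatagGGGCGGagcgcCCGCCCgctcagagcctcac
Notch3 upstream bases, chr17:32166897-32167140: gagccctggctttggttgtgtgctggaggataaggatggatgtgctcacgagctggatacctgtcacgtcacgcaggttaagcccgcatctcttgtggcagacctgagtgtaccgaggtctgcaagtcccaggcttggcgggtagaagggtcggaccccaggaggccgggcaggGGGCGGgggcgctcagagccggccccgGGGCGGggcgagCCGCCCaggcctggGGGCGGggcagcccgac
The Notch1 stretch is 250 bases long and held 5 GC boxes, and the Notch3 stretch is 244 bases long and held 4.

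Of the 8 genes, 6 had an entry in the promoter table, with 7 windows of 250 upstream bases. Hes1 and Myc were not among them. The windows were searched on both strands for TGGGAA (the core read by RBPJ), TNGCGTG (the element bound by AhR), CAGNTG (an E-box) and GGGCGG (a GC box). Among all 32851 mouse windows of that length, 21.6% held the RBPJ core, 4.1% the AhR element, 44.8% the E-box and 32.7% the GC box. No RBPJ core, AhR element or E-box was found upstream of Notch1, Notch2, Notch3 or Nrarp. An E-box was found once, for Rbpj. GC boxes numbered 5 for Notch2, 3 for Dtx1 and 2 for Nrarp. An AhR element was found for Dtx1 alone, 78 bases before the transcript start, and RBPJ cores for Rbpj alone, 149 and 65 bases before the start of 1 of its transcripts. These 3 pieces of 30 bases are shown with the motif in capitals, and the last holds the core on its other strand. Dtx1 lies on the minus and Rbpj on the plus strand of GRCm38.p6.
Dtx1, AhR element, chr5:120711730-120711759: ggactcggtgacTCGCGTGtcacagcggct
Rbpj, RBPJ core, distal, chr5:53590185-53590214: aatgaaaaaggcTGGGAAcccgcggcgagc
Rbpj, RBPJ core, proximal, chr5:53590269-53590298: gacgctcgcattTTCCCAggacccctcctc
A match is a run of letters and no evidence of binding.

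The arrays were first set against their labels. Array medians lay between 4.81 and 4.91. Genes known to respond to AhR were higher after TCDD by title: Cyp1b1 read 4.62 and 5.04 in thymocytes after oil and 8.46 and 9.59 after TCDD, and 4.69 and 6.25 in emigrants after oil and 6.87 and 8.36 after TCDD. For emigrants oil 1 the Treatment field gives TCDD at 10 nM, whereas its Cyp1b1 value of 4.69 and Scin value of 4.88 were below those of both emigrant TCDD arrays. The same 10 nM stands in that field for the arrays titled TCDD. It is a concentration, while the injected dose is given by weight as 10 µg/kg, and the labels do not explain this. The field of the other emigrant oil array reads Dioxane 2, and the protocol text of the thymocyte TCDD arrays names corn oil alone. For emigrants oil 2 and emigrants TCDD 1 the Tissue field reads Thymus, the word used for the thymocyte arrays, although their titles name thymus emigrants. Groups follow the titles throughout. All 6 measured T cell markers (Cd3d, Cd3e, Cd3g, Cd247, Thy1 and Cd5) lay above the array median on all 8 arrays. Their mean ran from 8.14 to 8.22 in thymocytes and from 7.72 to 8.35 in emigrants, and 2 of the 6 were lower in emigrants without overlap. Over all probe sets, 11.8% did not overlap between the sources. Thy1 was at 9.25 to 9.41 in thymocytes and 8.45 to 8.84 in emigrants, and Cd3g at 9.36 to 9.55 and 8.50 to 9.33. The other T cell markers overlapped, with differences, emigrants minus thymocytes, from -0.24 for Cd3d to 0.44 for Cd3e.

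Of the other marker lists, the means of immature thymocyte and of B cell markers did not overlap between the sources. The means of the remaining lists overlapped. The mean of 6 markers of immature CD4- CD8- thymocytes ran from 8.06 to 8.45 in thymocytes and from 5.54 to 7.30 in emigrants, and 4 of the 6 were lower there without overlap. Kit, in the same list, went the other way in its values, at 5.89 to 6.83 in thymocytes and 6.72 to 8.64 in emigrants, with overlap. Of the emigrant arrays, oil 2 had the highest mean of this list, 7.30, with Rag1 at 9.81 against 3.89, 5.10 and 3.75 in the others. The mean of 9 B cell markers ran from 5.90 to 6.42 in thymocytes and from 5.13 to 5.45 in emigrants, with 4 of the 9 lower in emigrants without overlap. Of these Ms4a1 (CD20) was at 6.96 to 8.93 in thymocytes and 4.57 to 5.36 in emigrants, while Cd79a, Pax5 and Cr2 lay below the array median on every array. Markers of NK cells ran from 6.14 to 6.66 and from 6.05 to 7.29, those of macrophages from 6.20 to 6.74 and from 6.35 to 7.87, and those of granulocytes from 6.74 to 8.32 and from 5.98 to 9.0. In 2 of these lists 1 of 7 measured markers was higher in emigrants without overlap, beside 11.8% of all probe sets not overlapping in either direction. Tbx21 of the NK cell list was at 4.57 to 5.09 in thymocytes and 5.81 to 7.01 in emigrants (limma adjusted p 0.0614). The other NK cell markers overlapped, with differences from -1.23 for Gzma, the brightest, to 1.68 for Klrd1. Csf1r of the macrophage list was at 8.64 to 9.34 and 9.71 to 10.63 (limma adjusted p 0.0616). The other macrophage markers overlapped, with differences from 0.18 for Lyz2 to 1.14 for C1qb. Ranges were 4.68 to 4.98 and 4.53 to 6.78 for erythroid markers, and 5.18 to 5.88 and 5.36 to 5.98 for platelets. Dendritic cell markers ran from 5.12 to 5.45 and from 5.29 to 5.47. Those of double-positive thymocytes ran from 4.62 to 5.94 and from 4.53 to 5.43. Those of stroma and epithelium ran from 4.73 to 4.92 and from 4.33 to 5.23. In that last list Col1a1 was higher in emigrants without overlap, at 4.13 to 4.33 in thymocytes and 4.37, 6.28, 4.48 and 4.44 in emigrants. Col1a1 was above the array median on 1 array only, emigrants oil 2 (limma adjusted p 0.499). The other markers of that list overlapped, with differences from -1.31 for Epcam to -0.06 for Krt18. The part of these cell types in the Notch results was not tested. In sorted bulk samples, fewer cells of a type and less RNA per cell cannot be told apart.

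**Figure D1:**
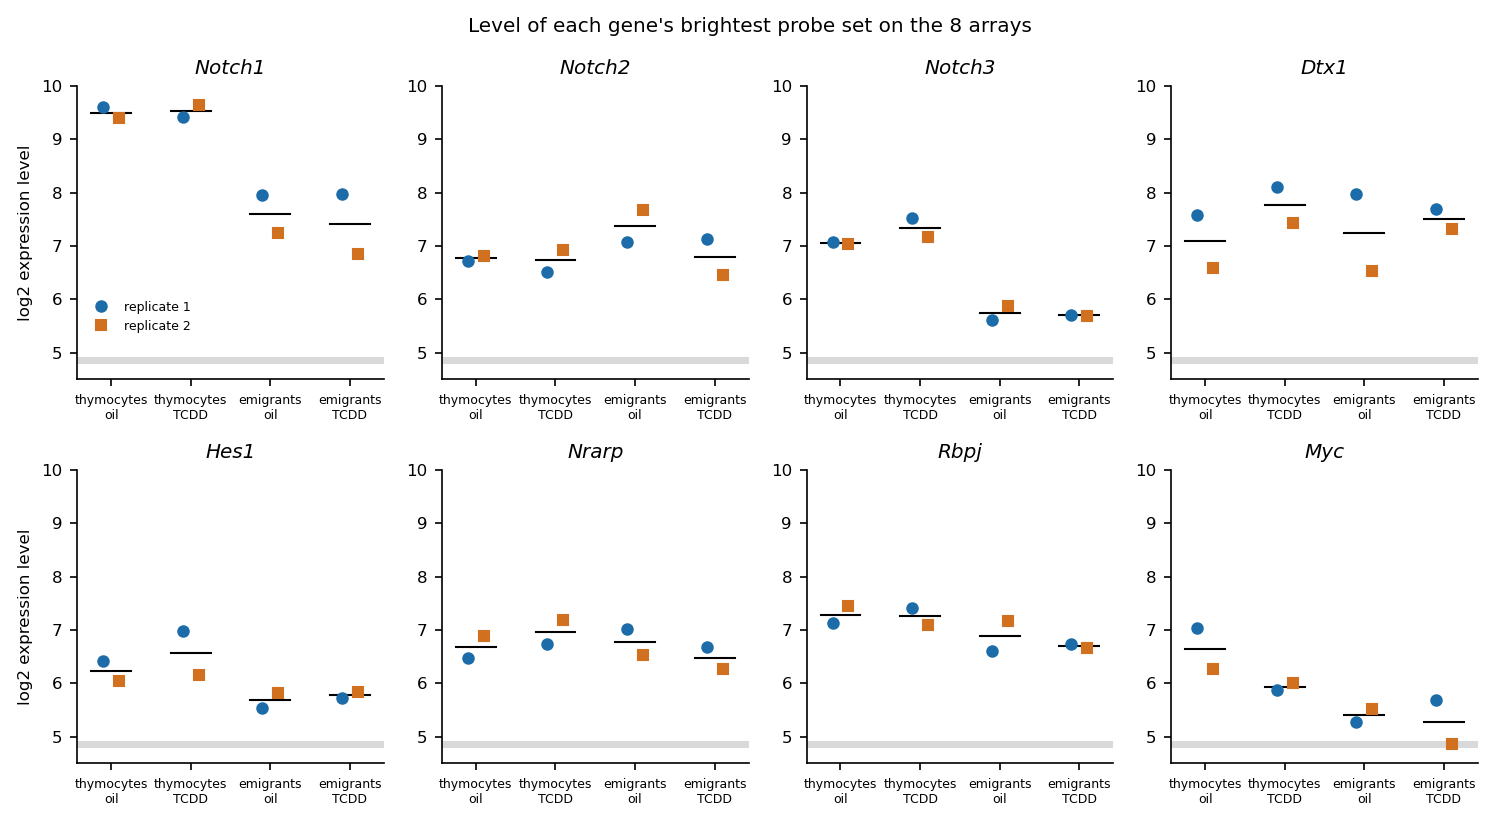
Log2 expression value of each Notch gene on each of the 8 arrays, by group, for the probe set with the highest mean. Points are single arrays, bars the mean of the 2 arrays of a group and the grey band the range of the array medians (4.81 to 4.91). The Notch1 and Notch3 points of the thymocyte arrays all lie above those of the emigrant arrays.

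Emigrants were compared with thymocytes, with equal weight on oil and TCDD and 4 arrays on each side. Notch3 fell in emigrants and was the 1 probe set of the 13 that passed limma's adjusted p of 0.05, beside 14 of all 22626 probe sets (0.0619%), 7 in each direction. Notch1 had the largest difference of the 13 and missed the threshold. The 4 arrays of each source did not overlap for 5 of the 13 probe sets (38.5%), all 5 lower in emigrants, where 11.8% of all probe sets did not overlap. They belonged to Notch1, Notch3 (both probe sets), Hes1 and Myc. Differences were below 0 for 11 of the 13, with a median of -0.20 against 0.03 over all probe sets, of which 55.3% were above 0. Among the 11, Nrarp 1417986_at and Rbpj 1418114_at were at -0.01 only.

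The brighter Notch3 probe set (1421965_s_at) read 7.08 and 7.03 in thymocytes after oil, 7.53 and 7.16 in thymocytes after TCDD, 5.61 and 5.88 in emigrants after oil, and 5.70 and 5.69 in emigrants after TCDD. Every thymocyte array stood above every emigrant array, by at least 1.16. Notch3 fell by 1.48 on the log2 scale (SE 0.12, 95% interval -1.78 to -1.18), or 2.79-fold, with a limma adjusted p of 0.0372. Group means were 7.34 ± 0.26 (SD, n = 2) for thymocytes after TCDD, 7.06 ± 0.04 for thymocytes after oil, 5.74 ± 0.19 for emigrants after oil and 5.70 ± 0.01 for emigrants after TCDD, and the last 2 differed by less than their spread. The difference was -1.31 between the oil groups, with a limma adjusted p of 0.188, and -1.64 between the TCDD groups, with 0.231. It kept its sign and lost the call without any single thymocyte array, without emigrants oil 1 or without emigrants TCDD 2 (-1.57 to -1.39, limma adjusted p 0.0921 to 0.169), and with limma's trend and robust settings (adjusted p 0.0623). Without emigrants oil 2, the array with high Rag1, it was -1.54 with a limma adjusted p of 0.0447. Without emigrants TCDD 1, the array with the highest granulocyte and erythroid means, it was -1.48 with 0.0482. Without both of these arrays, whose Tissue field reads Thymus, it was -1.55 with a limma adjusted p of 0.0849, a setting chosen after seeing the data.

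The dimmer Notch3 probe set (1421964_at) read 5.13, 5.10, 5.24 and 5.19 in thymocytes and 4.96, 4.74, 4.85 and 5.04 in emigrants. Thymocytes were again the higher side, by 0.27 (SE 0.10, limma adjusted p 0.315), close to the array median of these arrays.

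The brighter Notch1 probe set (1418634_at) read 9.61 and 9.40 in thymocytes after oil and 9.42 and 9.65 after TCDD, against 7.96 and 7.24 in emigrants after oil and 7.98 and 6.85 after TCDD. The thymocyte arrays were tightly grouped and all lay above the emigrant arrays, with a gap of 1.41, while the emigrant arrays were spread. The difference was -2.01 (SE 0.29, 95% interval -2.71 to -1.32), a 4.04-fold lower level, with a limma adjusted p of 0.0614. Group means were 9.54 ± 0.16 (SD, n = 2) for thymocytes after TCDD, 9.50 ± 0.16 for thymocytes after oil, 7.60 ± 0.50 for emigrants after oil and 7.41 ± 0.80 for emigrants after TCDD, so the neighbours within each source differed by less than their spread. Notch1 passed where only the brighter probe sets were tested (limma adjusted p 0.0487), with the replicate number as a block (0.0486) or a block within each source (0.00519), and without emigrants TCDD 1 (-2.30, 0.0448). Of all probe sets, 109 of 11313 passed with the brighter ones only. With the replicate block 226 of 22626 passed, and with the block within each source 2959 did, on 2 residual degrees of freedom. In the other settings tried Notch1 missed the threshold, with limma adjusted p from 0.0542 with 1 probe set a gene to 0.361 between the TCDD groups alone. Among these were 0.0836 with trend and robust settings, 0.257 between the oil groups alone, and 0.0984 to 0.211 without any other single array. Without emigrants oil 2 and emigrants TCDD 1, both with Thymus as Tissue, the difference was -2.12 with a limma adjusted p of 0.0794. The dimmer probe set (1418633_at) lay between 5.46 and 5.62 in thymocytes and between 5.33 and 5.49 in emigrants, a difference of -0.13 with overlapping arrays.

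Notch2 showed no such separation. Its brighter probe set (1455556_at) read 6.71, 6.82, 6.52 and 6.93 in thymocytes and 7.07, 7.68, 7.13 and 6.45 in emigrants. The emigrant arrays included both the highest and the lowest of the 8 values, and the difference was 0.34 (SE 0.22, 95% interval -0.19 to 0.86, limma adjusted p 0.544). The other probe set (1451889_at) was below the array median on every array, at 4.15 to 4.69, the only 1 of the 13 to be so, and its level was not shown to be above background.

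Rbpj, whose protein carries the receptor signal to DNA, was lower in emigrants by 0.49 for its brighter probe set (1448957_at; SE 0.17, 95% interval -0.90 to -0.08, limma adjusted p 0.269). Its values were 7.14, 7.45, 7.42 and 7.10 in thymocytes and 6.60, 7.17, 6.74 and 6.66 in emigrants. The ranges overlapped through the emigrant oil 2 array at 7.17. The dimmer probe set (1418114_at) differed by -0.01, with all 8 arrays between 5.80 and 6.11.

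Among the targets, Hes1 (1418102_at) read 6.42, 6.04, 6.99 and 6.16 in thymocytes and 5.54, 5.82, 5.73 and 5.83 in emigrants. The sources did not overlap, but were only 0.21 apart at the nearest arrays. Hes1 was lower in emigrants by 0.67 (SE 0.21, 95% interval -1.18 to -0.16), 1.59-fold, with a limma adjusted p of 0.231. The limma adjusted p was 0.0212 with the replicate number as a separate block for thymocytes and for emigrants. That setting left 2 residual degrees of freedom, and 2959 of all 22626 probe sets passed in it.

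Myc (1424942_a_at) read 7.04 and 6.27 in thymocytes after oil, 5.88 and 6.00 in thymocytes after TCDD, 5.28 and 5.52 in emigrants after oil and 5.68 and 4.86 in emigrants after TCDD. The order of the group means was thymocytes after oil (6.65 ± 0.55, SD, n = 2), thymocytes after TCDD (5.94 ± 0.08), emigrants after oil (5.40 ± 0.17) and emigrants after TCDD (5.27 ± 0.58), with the emigrant groups overlapping. The source difference was -0.96 (SE 0.25, 95% interval -1.56 to -0.37), a 1.95-fold lower level in emigrants, with a limma adjusted p of 0.161.

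Dtx1 and Nrarp overlapped between the sources. Dtx1 (1425822_a_at) read 7.59 and 6.58 in thymocytes after oil, 8.10 and 7.44 in thymocytes after TCDD, 7.97 and 6.53 in emigrants after oil and 7.69 and 7.31 in emigrants after TCDD. In all 4 groups the array numbered 1 was above the array numbered 2, by 1.01, 0.66, 1.44 and 0.38. The source difference of -0.05 (SE 0.39) had a 95% interval of -1.0 to 0.90, so a doubling of Dtx1 in emigrants lay just outside it. The lower end of the interval was a 2.01-fold lower level in emigrants. The difference changed sign, to 0.04, with a repeated quantile normalization. Nrarp differed by -0.20 (1417985_at; SE 0.20, 95% interval -0.67 to 0.28, limma adjusted p 0.694) and -0.01 (1417986_at), with overlapping arrays in both probe sets. Whether the targets differ from each other in their response to the source was not tested.

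**Figure D2:**
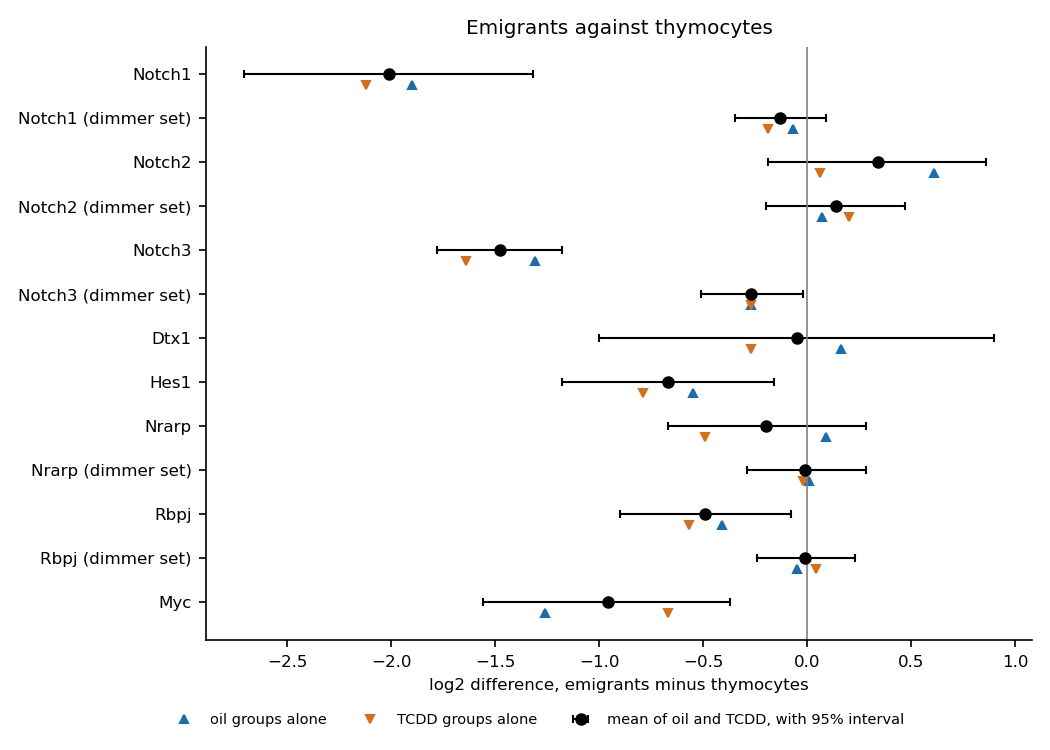
Log2 difference, emigrants minus thymocytes, for each Notch gene probe set, with the limma estimate over all 8 arrays and its 95% interval, beside the differences within the oil and within the TCDD groups. The intervals of Notch1 (-2.71 to -1.32) and Notch3 (-1.78 to -1.18) lie farthest below 0.

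TCDD was compared with oil in thymocytes. None of the 13 probe sets passed limma's adjusted p of 0.05, as none of the 22626 did (0%); at an unadjusted p under 0.05 there were 0 of the 13 and 313 of all. The 2 TCDD arrays did not overlap the 2 oil arrays for 5 of the 13 (38.5%), beside 20.7% of all probe sets, with 4 higher (both Notch3, Nrarp 1417986_at and Rbpj 1418114_at) and 1 lower (Myc). The median difference was 0.06 against 0.00 over all probe sets.

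Myc had the largest size, at -0.71 (SE 0.35, 95% interval -1.56 to 0.13, limma adjusted p 1). Without thymocytes oil 1, whose value of 7.04 was the highest, it was -0.32. Dtx1 was at 0.68 (SE 0.55, 95% interval -0.66 to 2.03), with overlapping arrays; it ran from 0.18 without thymocytes oil 2 to 1.19 without thymocytes oil 1. Hes1 was at 0.34 (SE 0.30), and its 6.99 in the TCDD 1 array stood apart from 6.04 to 6.42 in the other thymocyte arrays; without that array it was -0.08. Notch3 was at 0.28 (SE 0.17, 95% interval -0.14 to 0.71), 7.53 and 7.16 against 7.08 and 7.03; it was 0.10 without thymocytes TCDD 1 and 0.47 without thymocytes TCDD 2. Notch1 differed by 0.03, less than its SE of 0.41, with an interval of -0.95 to 1.02. Notch2 differed by -0.04 (SE 0.31) and Rbpj by -0.03 (SE 0.24).

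The same comparison in emigrants also gave no call among the 13 probe sets and none among all 22626 (0%), where 0 and 273 had an unadjusted limma p under 0.05. The arrays did not overlap for 1 of the 13 (7.69%), beside 24.6% of all probe sets. This was Nrarp 1417986_at, at 5.77 and 6.05 after TCDD and 5.63 and 5.76 after oil, a difference of 0.21. The brighter Nrarp probe set (1417985_at) went the other way, at -0.30 (SE 0.28), with overlapping arrays. The median difference of the 13 was -0.04 against 0.02 over all probe sets.

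Notch2 had the largest size in emigrants, at -0.58 (SE 0.31, 95% interval -1.33 to 0.16, limma adjusted p 1), with 7.13 and 6.45 after TCDD and 7.07 and 7.68 after oil. The difference came with arrays numbered 2 and not with those numbered 1, which were 0.06 apart. Notch1 was at -0.19 (SE 0.41, 95% interval -1.17 to 0.80), Notch3 at -0.04 (SE 0.17), Rbpj at -0.19 (SE 0.24), Dtx1 at 0.25 (SE 0.55), Hes1 at 0.11 (SE 0.30) and Myc at -0.13 (SE 0.35), in each case with overlapping arrays. With the emigrant array titled oil 1 counted as TCDD, the value of Dtx1 became 1.13, the largest of the 13, that of Notch2 -0.80, of Rbpj -0.51, of Notch1 0.35 and of Hes1 -0.12, each with a limma adjusted p of 1.

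**Figure D3:**
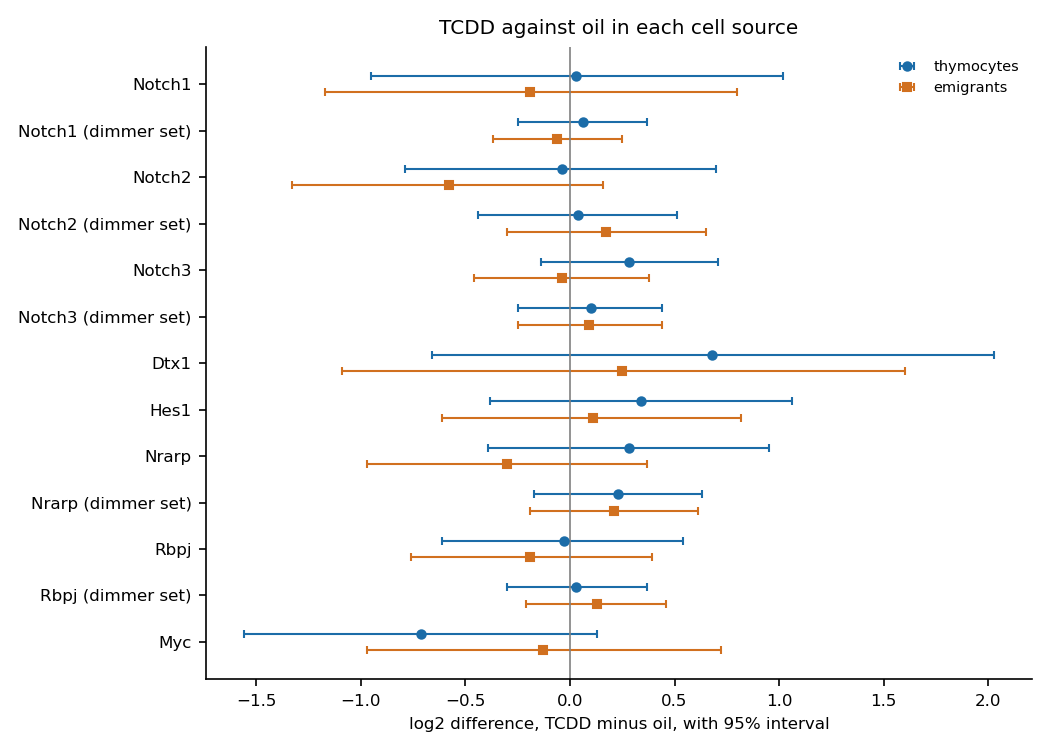
Log2 difference, TCDD minus oil, for each Notch gene probe set in thymocytes (circles) and emigrants (squares), with the limma estimate and its 95% interval. Every interval includes 0, and those of Dtx1 (-0.66 to 2.03 in thymocytes) are the widest.

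Whether the TCDD difference itself differed between the sources was tested as an interaction. None of the 13 and none of all 22626 probe sets (0%) passed limma's adjusted p of 0.05, and 0 and 289 had an unadjusted p under 0.05. The sizes ran from -0.58 to 0.58, with a median of -0.15 against 0.03 over all probe sets. Nrarp (1417985_at) read 6.47 and 6.89 in thymocytes after oil, 6.73 and 7.19 after TCDD, 7.01 and 6.54 in emigrants after oil and 6.68 and 6.26 after TCDD. TCDD minus oil between same-numbered arrays was 0.26 and 0.29 in thymocytes and -0.33 and -0.28 in emigrants, although the groups overlapped in both sources. The shared array numbers do not establish a pairing. The interaction of this probe set was -0.58 (SE 0.39, 95% interval -1.53 to 0.37, limma adjusted p 1). The other Nrarp probe set (1417986_at) was higher after TCDD in both sources, by 0.23 in thymocytes and 0.21 in emigrants, without overlap. Its interaction was -0.02 (SE 0.23). Myc was at 0.58 (SE 0.49), Notch2 at -0.54 (SE 0.44) and Dtx1 at -0.43 (SE 0.78). Without single arrays the value of Myc ran from 0.17 to 0.99, that of Notch2 from -0.88 to -0.20 and that of Nrarp 1417985_at from -0.82 to -0.34.

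Other genes of the pathway came from a list of 57, of which 48 were measured, each through its brightest probe set on average. None of the 48 passed limma's adjusted p of 0.05 in any of the 4 comparisons. Between the sources, 16 of the 48 had an unadjusted limma p under 0.05, 13 higher and 3 lower in emigrants. Of all probe sets, dim ones included, 14.1% did. Closer to a list of brightest probe sets, it was 1931 of 12393 with 1 probe set a gene. Among the brighter probe sets only, it was 2330 of 11313. The arrays of the sources did not overlap for 11 higher and 3 lower, beside 11.8% of all probe sets in either direction, again with dim ones included. The median was 0.12 against 0.03 over all probe sets.

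The ligands Dll1, Dll3, Dll4, Jag1 and Jag2 had a median source difference of 0.06, and 3 of the 5 lay below the array median on all arrays; of them Jag2 alone was above it on all 8, at 5.92 to 6.26. Notch4, the remaining receptor, was below it on all arrays, at 4.24 to 4.48. The 7 measured genes of receptor processing, which cut the receptor or build the gamma-secretase, were all above 0, with a median of 0.56. Of these Psen2, a catalytic subunit of gamma-secretase, read 5.13 to 5.67 in thymocytes and 5.99 to 6.82 in emigrants, a difference of 0.92 (SE 0.21, limma adjusted p 0.14), while its dimmer probe set differed by 0.10. Glycosylation genes had a median of 0.31, inhibitors and turnover genes 0.47, coactivators 0.17 and corepressors -0.16. Crebbp, a histone acetyltransferase that serves as a coactivator, was at 0.72 (SE 0.16, limma adjusted p 0.132).

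The 14 measured targets in T cell development had a median of 0.00, with 7 above and 7 below 0 and the widest spread of any group. Ptcra, the pre-T cell receptor alpha chain, read 8.83, 9.20, 8.95 and 9.45 in thymocytes and 5.35, 7.00, 5.25 and 5.08 in emigrants. It was lower in every emigrant array, with a difference of -3.44 (SE 0.36, limma adjusted p 0.0534). Il2ra, the CD25 chain that marks an immature CD4- CD8- stage, was at -2.39 (SE 0.40, limma adjusted p 0.0754), with 6.88 to 8.47 in thymocytes and 4.77 to 6.12 in emigrants; its dimmer probe set was at -0.36. Ptcra and Il2ra are also among the 6 immature thymocyte markers above. Ccnd3, a G1 cyclin used in beta-selection, was at -0.69 (SE 0.13, limma adjusted p 0.102). The opposite side was led by Il7r, the interleukin 7 receptor chain, at 1.66 (SE 0.36, limma adjusted p 0.122), with 8.49 to 9.41 in thymocytes and 9.67 to 11.27 in emigrants, and its other probe set was at 2.02.

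**Figure D4:**
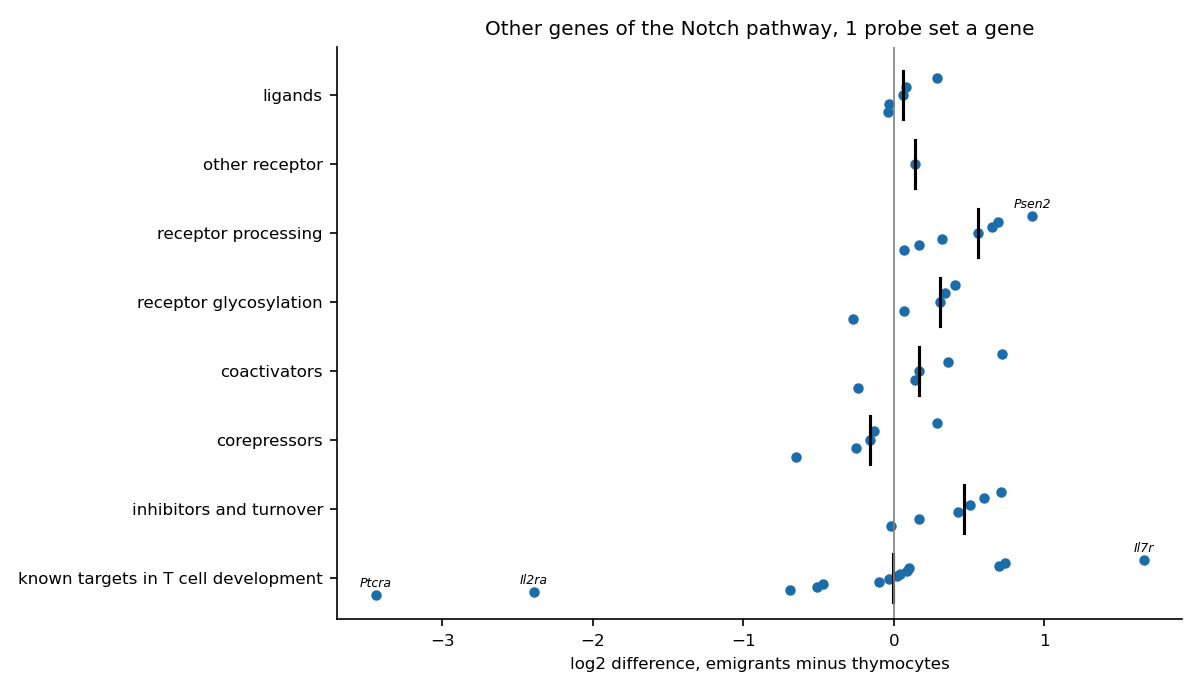
Log2 difference, emigrants minus thymocytes, for the 48 measured genes of the wider Notch pathway list, grouped by role, 1 point a gene. The 7 receptor processing genes all lie above 0, and the targets reach from -3.44 (Ptcra) to 1.66 (Il7r).

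After TCDD the pathway genes with the smallest p in thymocytes were Kat2b, an acetyltransferase coactivator, at 0.49 (SE 0.19), the receptor fucosyltransferase gene Pofut1 at 0.20 (SE 0.12) and the ubiquitin ligase gene Itch at 0.31 (SE 0.20) on the higher side. On the lower side were Ccnd3 at -0.71 (SE 0.19), the deacetylase gene Hdac1 at -0.56 (SE 0.42) and Rfng, of the Fringe glycosyltransferases, at -0.12 (SE 0.13). In emigrants they were the corepressor gene Spen at 0.41 (SE 0.20), Ccnd3 at 0.37 (SE 0.19) and Rfng at 0.21 (SE 0.13), and on the lower side Mfng, another Fringe gene, at -0.60 (SE 0.18), Ptcra at -1.01 (SE 0.51) and Il7r at -0.51 (SE 0.51). For the interaction they were Ccnd3 at 1.08 (SE 0.27), Rfng at 0.33 (SE 0.18) and Spen at 0.41 (SE 0.28), and Mfng at -0.71 (SE 0.25), Kat2b at -0.53 (SE 0.26) and Ptcra at -1.19 (SE 0.73). The limma adjusted p of each was 1.

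For the 3 members with the widest range over the arrays, the genes with the most similar profile were sought by the root mean square distance of centred log2 profiles over the 8 arrays, as a description. Nearest to Notch1 (range 2.80) were Chdh at a distance of 0.30, Xrcc6 at 0.31 and Eef1e1 at 0.32, where the median candidate was at 1.1. Chdh encodes choline dehydrogenase, Xrcc6 the Ku70 protein of DNA end joining and Eef1e1 a cofactor of tRNA synthetases. Nearest to Myc (range 2.18) were Sf3a3, a splicing factor gene, at 0.18, Anp32b at 0.19 and Stoml2 at 0.19, with a median candidate at 0.69. Nearest to Notch3 (range 1.92) were Mta3, of the NuRD corepressor complex, at 0.18, Lsm3, an RNA-binding protein gene, at 0.20 and Hibadh, of valine breakdown, at 0.21, with a median candidate at 0.80. All of these distances rest on the same 8 arrays.

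**Figure D5:**
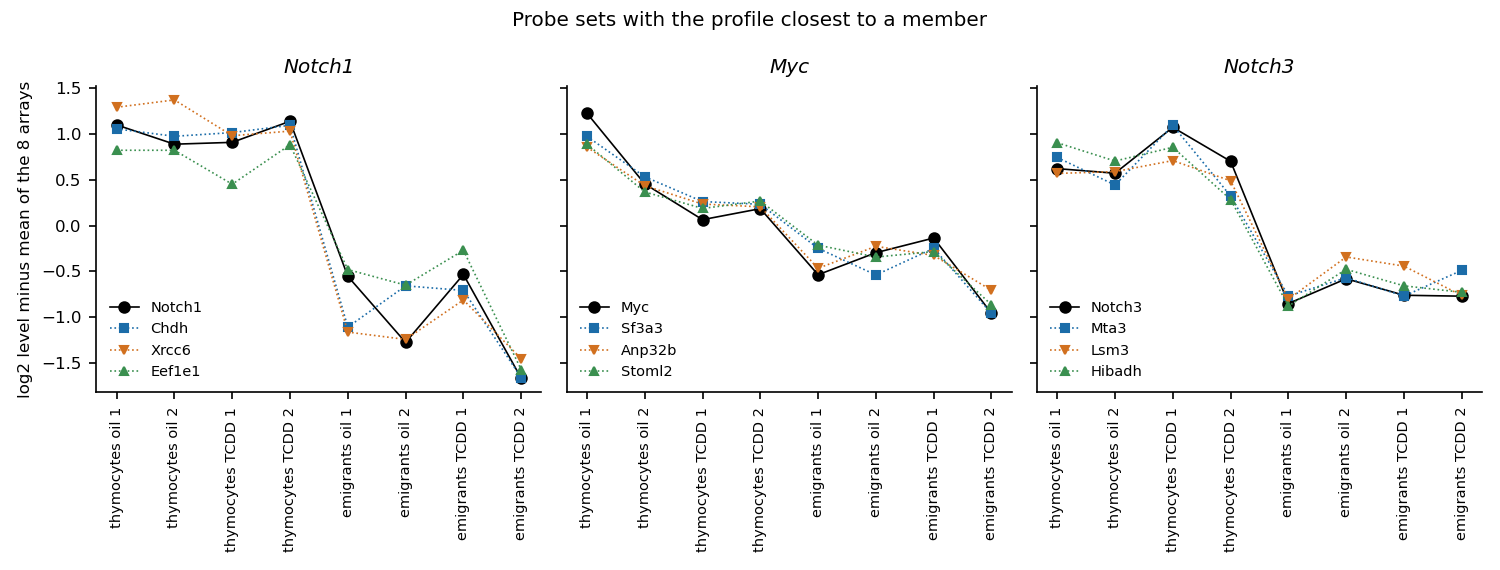
Centred log2 values over the 8 arrays of Notch1, Myc and Notch3, each with the 3 genes of smallest distance, where lines only join the arrays of 1 gene. The thymocyte arrays lie above the emigrant arrays for Notch1, Myc and Notch3 and for the nearest genes of each, which were picked for that likeness.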

How the data were processed

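The authors deposited log2 values of Affymetrix mouse arrays for 22690 probe sets on 8 arrays, made from amplified RNA, and the submitters' processing notes name RMA, with no version. Values ran from 2.54 to 13.9. RMA makes array distributions alike and compresses differences of dim probe sets, so a shift common to most genes would not be seen. Settings and genome build are otherwise not given in the sources used here.

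The 64 control probe sets were left out. Symbols came from the platform annotation: 20380 probe sets had 1, 691 several and 1555 none. Differences were estimated for each probe set with limma 3.58.1 in R 4.3.3 (two-sided, group means, lmFit and eBayes, 4 residual degrees of freedom), p adjusted by Benjamini-Hochberg over all 22626 probe sets, and the code was tested on simulated data. No filter on dim probe sets was used. The genes, lists and tests were chosen with earlier results of these data known. The text names every probe set of the 8 genes and, from the pathway list, up to 3 genes higher and 3 lower with the smallest p in each comparison. Alternatives were another normalization, another scaling, a filter, 1 probe set a gene, another prior, the replicate number as a block, 1 array regrouped by its Treatment field, fewer groups, leaving out each array and, chosen after seeing the data, leaving out both emigrant arrays whose Tissue field reads Thymus.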

Additional observations from a re-analysis of the deposited data

Results flagged for a closer look

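Ccnd3 (1415907_at) is a G1 cyclin gene from the list of Notch targets. Of 61 results looked at, it was the 1 whose TCDD differences ran in opposite directions in the sources without overlap. Over all probe sets, TCDD and oil arrays did not overlap for 20.7% in thymocytes and 24.6% in emigrants. How many were opposed in both sources was not counted, so 1 of 61 was not shown to be unusual. Ccnd3 read 8.44 and 7.95 in thymocytes after oil and 7.51 and 7.47 after TCDD. In emigrants its values were 7.05 and 6.89 after oil and 7.30 and 7.38 after TCDD. TCDD minus oil was -0.71 in thymocytes and 0.37 in emigrants. The interaction was 1.08, with an unadjusted limma p of 0.0061 and a limma adjusted p of 1, so it did not pass the threshold over all probe sets.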

How the results depend on the processing

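Between the sources, 14 probe sets passed limma's adjusted p of 0.05. The count was 35 with a repeated quantile normalization, 109 with brighter probe sets only, 8 with trend and robust settings, 88 with emigrants oil 1 counted as TCDD, 0 with only the oil groups (2024 at an unadjusted p under 0.05), 0 with only the TCDD groups (1683), 0 without both emigrant arrays whose Tissue field reads Thymus (3005; chosen after seeing the data) and 0 to 76 without single arrays (2560 unadjusted where it was 0 without thymocytes oil 1). With emigrants oil 1 counted as TCDD, 1 probe set passed for TCDD in emigrants and 1 for the interaction. With the replicate number as a block, 226 passed between the sources, and with the block within each source 2959 passed there and 1 for TCDD in thymocytes. The replicate 1 minus 2 deviations correlated over probe sets at 0.734 between the thymocyte groups and 0.523 between the emigrant groups, and at 0.123, -0.0441, -0.029 and -0.146 across sources. With 2 numbers this does not establish a pairing.

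Several small differences changed sign, none of which had passed the threshold; the cause was not tested. With a repeated quantile normalization, Dtx1 was 0.040 between the sources and Nrarp 1417986_at 0.0031 for the interaction. With emigrants oil 1 counted as TCDD, TCDD minus oil in emigrants was 0.35 for Notch1 1418634_at, 0.032 for Notch1 1418633_at, 0.11 for Nrarp 1417985_at, -0.12 for Hes1 and -0.072 for Rbpj 1418114_at, the interaction was 0.32 for Notch1 1418634_at, 0.11 for Notch3 1421964_at, 0.44 for Dtx1 and -0.10 for Rbpj 1418114_at, and the source difference was 0.012 for Rbpj 1418114_at. With only the oil groups the source difference was 0.091 for Nrarp 1417985_at, 0.0061 for Nrarp 1417986_at and 0.16 for Dtx1, and with only the TCDD groups it was 0.041 for Rbpj 1418114_at. Without both arrays with Tissue Thymus it was 0.21 for Dtx1 and 0.032 for Nrarp 1417986_at.

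Without single arrays, source differences ran from -0.41 to 0.31 for Dtx1, -0.075 to 0.065 for Nrarp 1417986_at and -0.064 to 0.052 for Rbpj 1418114_at. TCDD minus oil in thymocytes ran from -0.075 to 0.76 for Hes1, -0.080 to 0.14 for Notch1 1418634_at, -0.19 to 0.13 for Rbpj 1448957_at, -0.0093 to 0.087 for Notch2 1451889_at and -0.25 to 0.16 for Notch2 1455556_at. In emigrants it ran from -0.035 to 0.25 for Hes1, -0.75 to 0.38 for Notch1 1418634_at, -0.013 to 0.20 for Notch3 1421964_at, -0.18 to 0.089 for Notch3 1421965_s_at, -0.54 to 0.28 for Myc, -0.47 to 0.97 for Dtx1, -0.47 to 0.10 for Rbpj 1448957_at and -0.078 to 0.43 for Notch2 1451889_at. The interaction ran from -0.16 to 0.12 for Nrarp 1417986_at, -0.65 to 0.18 for Hes1, -0.023 to 0.21 for Rbpj 1418114_at, -0.78 to 0.35 for Notch1 1418634_at, -0.11 to 0.10 for Notch3 1421964_at, -1.15 to 0.29 for Dtx1, -0.44 to 0.13 for Rbpj 1448957_at and -0.12 to 0.39 for Notch2 1451889_at. Where an array was left out, the lone remaining array of that group was assumed to vary like the other groups. Background signals of single probes were not used here, so levels near the array median are the least certain.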

Other observations

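Hey1, a repressor gene of the Hes family and a known Notch target, was singled out after its values were seen. It read 5.53, 5.79, 5.65 and 5.67 in thymocytes, and in emigrants 5.71 and 6.85 after oil and 5.45 and 7.42 after TCDD. The emigrant arrays numbered 2 were the high ones in both treatments, and the same arrays had the higher macrophage marker means (7.49 and 7.87 against 6.35 and 7.05). Its source difference was 0.70, and the part of those cells in it was not tested.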
